A study of Mus musculus with 8 samples.

Results

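The transcripts of 9 genes that mark T lymphocytes and natural killer (NK) cells were followed in mouse liver. They were picked by gene symbol from a table of 17164 genes, and all 9 were found. They are the CD3 chain genes Cd3d (Entrez 12500), Cd3e (12501) and Cd3g (12502), the co-receptor chain Cd8a (12525), the adhesion receptor Cd2 (12481), the cytotoxic granule genes Nkg7 (72310), Gzma (14938) and Gzmb (14939), and the NK receptor Klrb1b (80782).

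Whole liver of male C57BL/6 mice was sequenced as RNA, with 2 liver samples chosen at random from each group of 6 mice. Mice of the model group were injected with the liver carcinogen diethylnitrosamine (DEN, 0.67%) at 2 weeks of age and, from 8 weeks on, 2 times a week with carbon tetrachloride (CCl4, 20% in olive oil), a hepatocyte toxin. The DWYG-M and DWYG-H groups carried the same DEN and CCl4 exposure and were given the preparation DWYG from 17 weeks, at 1 or 2 times the dose equivalent to clinical use. Control mice were injected with saline instead of DEN, and no CCl4 is described for them. All livers were taken at 22 weeks. The labels do not say whether the tissue was tumour or surrounding liver, nor which mouse gave each sample, so p-values measure the spread between these libraries. Hepatocyte markers such as Alb were abundant in every library.

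T cells recognise antigen through a receptor whose signal is carried by the CD3 chains, and CD8 directs cytotoxic T cells to class I MHC. Cytotoxic T cells and NK cells kill by releasing granules that hold granzymes. The liver holds resident NK and T cells among a large excess of hepatocytes, so their transcripts are dilute in RNA of the whole organ. Klrb1b encodes NKR-P1B, an inhibitory lectin-like receptor of mouse NK cells, and its ligand Clr-b is the product of Clec2d.

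The sequences just upstream of 4 of these genes are shown because the CD3 genes were read as one group and Klrb1b was the member that changed. Each runs from 250 bases before to 50 bases after the start of the gene in RefSeq on build GRCm38.p6, 5′ to 3′ on the gene's strand, with matches to the searched motifs in capitals. The windows are chr9:44981536-44981835 on the plus strand for Cd3d, chr9:45009562-45009861 on the minus strand for Cd3e, chr9:44980382-44980681 on the minus strand for Cd3g, and chr6:128826266-128826565 on the minus strand for Klrb1b.
Cd3d: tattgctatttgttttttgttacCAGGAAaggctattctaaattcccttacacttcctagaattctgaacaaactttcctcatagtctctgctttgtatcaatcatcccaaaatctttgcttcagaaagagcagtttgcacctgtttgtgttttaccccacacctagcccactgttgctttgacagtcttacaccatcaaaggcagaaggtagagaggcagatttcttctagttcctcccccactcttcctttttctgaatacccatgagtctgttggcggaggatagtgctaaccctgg
Cd3e: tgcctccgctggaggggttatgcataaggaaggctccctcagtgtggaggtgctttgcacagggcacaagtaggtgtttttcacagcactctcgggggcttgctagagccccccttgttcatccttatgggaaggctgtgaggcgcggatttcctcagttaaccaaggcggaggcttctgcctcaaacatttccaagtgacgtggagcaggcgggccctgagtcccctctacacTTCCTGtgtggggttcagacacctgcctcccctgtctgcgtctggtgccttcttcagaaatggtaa
Cd3g: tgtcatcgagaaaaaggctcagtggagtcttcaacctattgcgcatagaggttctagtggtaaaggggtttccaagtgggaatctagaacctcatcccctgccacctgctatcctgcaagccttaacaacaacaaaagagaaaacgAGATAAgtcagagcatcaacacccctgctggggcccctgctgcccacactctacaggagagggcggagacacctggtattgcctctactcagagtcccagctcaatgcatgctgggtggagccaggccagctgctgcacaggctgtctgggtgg
Klrb1b: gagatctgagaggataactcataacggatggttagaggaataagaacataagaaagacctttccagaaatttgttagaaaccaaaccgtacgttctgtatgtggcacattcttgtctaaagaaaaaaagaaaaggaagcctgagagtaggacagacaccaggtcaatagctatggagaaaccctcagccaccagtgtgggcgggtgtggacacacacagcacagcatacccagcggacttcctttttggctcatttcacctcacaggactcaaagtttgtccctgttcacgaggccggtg
On chromosome 9 the windows of Cd3d and Cd3g lie 855 bases apart on opposite strands. RefSeq windows were found for 8 of the 9 members, all but Cd2. The letters CAGGAA, a core bound by ETS factors, were in the windows of Cd3d, Cd3e and Nkg7 and in 30.4% of 27025 promoters, searched on both strands. AGATAA, the core bound by factors of the GATA family, was in that of Cd3g and in 11.4% of promoters. TGTGGT, a RUNX core, was in those of Nkg7, Gzma and Gzmb and in 16.9%, and TATAAA was in 0 of the 8 and in 14.2%. The Klrb1b window held none of the 4 motifs, which says only that these letters are not in it.

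Library depth was even, between 17345627 and 19191382 read counts, and 10101 to 11556 genes reached a value of 1 FPKM. FPKM scales reads by gene length and library size. The 8 members other than Klrb1b were scarce at this depth. Summed over these 8 genes, the libraries held 198 and 137 reads in model, 167 and 137 in DWYG-M, 125 and 502 in DWYG-H, and 110 and 50 in control. Counting error is therefore large for each gene. Cd3d, for example, had 10 reads in model replicate 1, with an exact 95% Poisson interval of 4.80 to 18.4 that covers counting error only.

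DWYG-H replicate 2 stood apart from the other 7 libraries in lymphocyte genes. It was the highest library for 6 of the 9 members and for 17 of 21 other T cell receptor complex and signalling genes, against 10.2% of all genes (1756 of 17154). It was also highest for 17 of 28 other NK genes, 6 of 9 B cell markers and 5 of 8 pan-leukocyte genes. Beyond these it was highest for 4 of 9 dendritic cell, 2 of 5 plasma cell, 2 of 7 hepatocyte and 1 of 10 monocyte and macrophage markers. It was highest for 0 of 8 Kupffer cell, 0 of 10 neutrophil and 0 of 7 erythroid markers. Results that rest on this library are given with and without it. In RNA of whole liver, fewer cells of a type and less RNA per cell cannot be told apart.

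The CD3 chains, which carry the signal of the T cell receptor, were low in 7 of the 8 libraries. Cd3d was at 0.55 and 0.21 FPKM in model, 0.54 and 0.61 in DWYG-M, 0.23 and 2.69 in DWYG-H, and 0.33 and 0.34 in control. For Cd3e the values were 0.78 and 0.78 FPKM in model, 0.43 and 0.24 in DWYG-M, 0.67 and 3.15 in DWYG-H, and 0.44 and 0.25 in control. DWYG-H replicate 2 was the highest library for both genes. Both DWYG-M libraries of Cd3d were above both control libraries, as for 42.5% of all genes. Cd3g, the third chain of the group, gave 1.89 and 0.89 FPKM in model, 1.81 and 1.43 in DWYG-M, 0.83 and 5.70 in DWYG-H, and 1.59 and 0.99 in control. It was the most abundant of the 3 chains per length in all 8 libraries, and DWYG-H held both its highest and its lowest library.

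**Figure D1:**
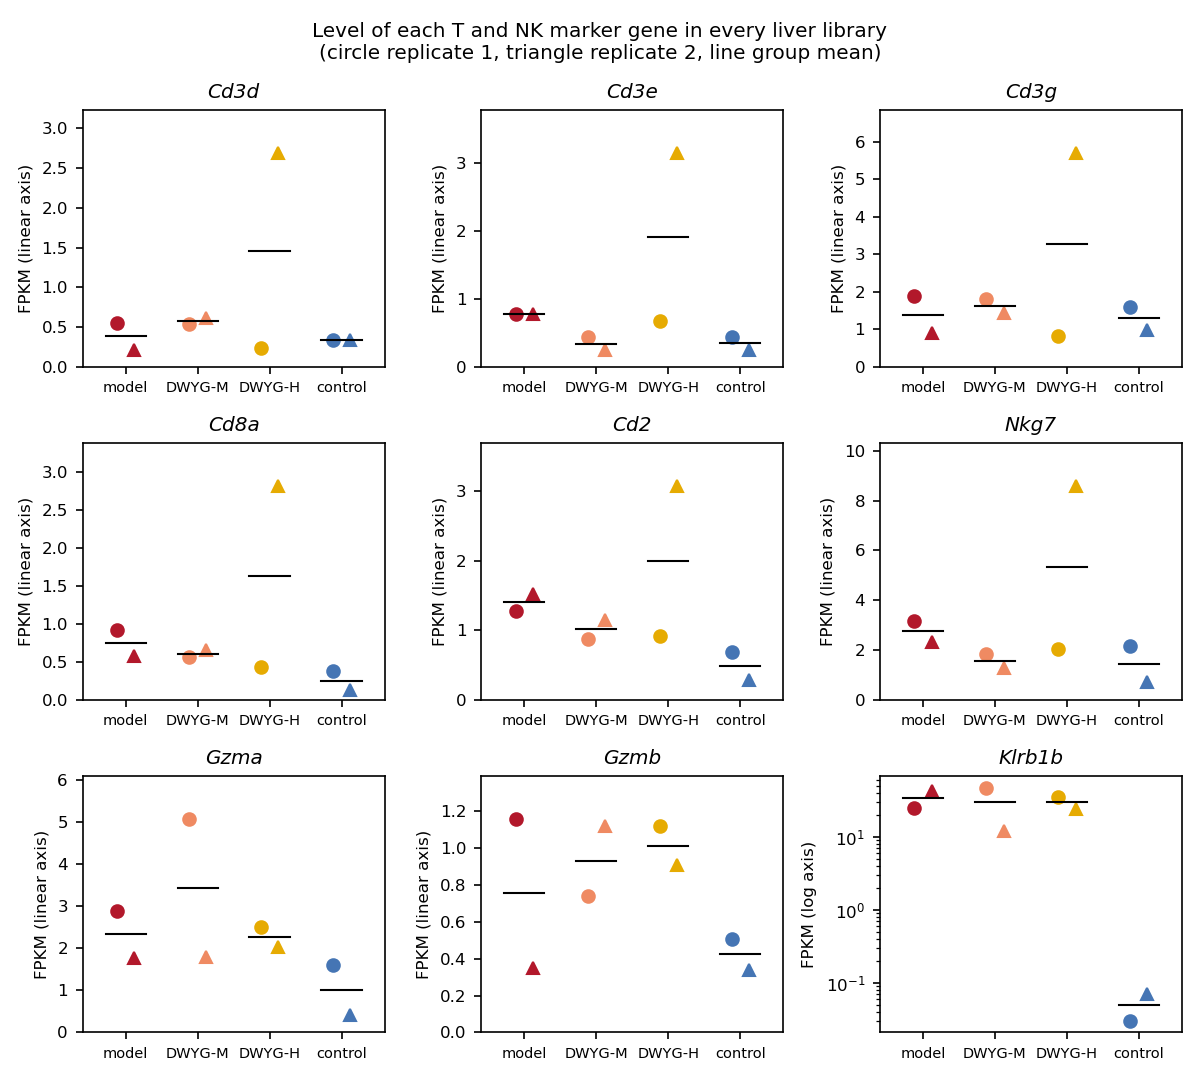
FPKM of each of the 9 marker genes (y axes, linear except for Klrb1b, which has a log axis) in the 8 liver libraries by group (x axes), with circles for replicate 1, triangles for replicate 2 and a line at the group mean. The triangle of DWYG-H lies above all other points for Cd3d, Cd3e, Cd3g, Cd8a, Cd2 and Nkg7, and the control points of Klrb1b lie at 0.03 and 0.07 FPKM, below all others.

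Cd8a, the CD8 chain of cytotoxic T cells, was at 0.92 and 0.58 FPKM in model, 0.56 and 0.65 in DWYG-M, 0.43 and 2.82 in DWYG-H, and 0.37 and 0.12 in control. Cd2, an adhesion receptor of T and NK cells, gave 1.28 and 1.52 FPKM in model, 0.87 and 1.15 in DWYG-M, 0.92 and 3.08 in DWYG-H, and 0.68 and 0.28 in control. Both control libraries lay below all 6 libraries of the exposed groups for these 2 genes. Of all genes, 44.7% had both model libraries above both control libraries. For DWYG-M that share was 42.5% and for DWYG-H 41.7%. Group means of Cd8a and Cd2 ran in the same order, from DWYG-H through model and DWYG-M to control. Only the last step of that order for Cd8a, and the last 2 steps for Cd2, separated groups whose libraries did not overlap. The first place of DWYG-H rested on replicate 2. DWYG-H replicate 1 (0.43 for Cd8a, 0.92 for Cd2) was below the model means (0.75 and 1.40) and DWYG-M means (0.605 and 1.01).

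Nkg7, a granule membrane protein of cytotoxic cells, was at 3.17 and 2.33 FPKM in model, 1.82 and 1.26 in DWYG-M, 2.03 and 8.59 in DWYG-H, and 2.16 and 0.71 in control. Both DWYG-M libraries were below both model libraries, as for 25.5% of all genes. DWYG-H had 1 library below and 1 library above both model libraries. The granzymes, proteases that enter target cells, differed from Nkg7 and from each other in the order of their group means. Gzma, a tryptase, gave 2.88 and 1.77 FPKM in model, 5.07 and 1.80 in DWYG-M, 2.51 and 2.03 in DWYG-H, and 1.60 and 0.42 in control. Gzmb, which cuts after aspartate, gave 1.16 and 0.35 FPKM in model, 0.74 and 1.12 in DWYG-M, 1.12 and 0.91 in DWYG-H, and 0.51 and 0.34 in control. DWYG-H replicate 2 did not stand out for either granzyme, at 1.13 times the median of the other 7 libraries for Gzma and 1.23 times for Gzmb, against 4.23 times for Nkg7 and 7.91 times for Cd3d.

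Klrb1b behaved unlike the other 8 members in level and in pattern. It was at 25.3 and 42.4 FPKM in model, 47.4 and 12.2 in DWYG-M, 35.3 and 24.5 in DWYG-H, and 0.03 and 0.07 in control. Group means were 33.8 ± 12.1 FPKM in model, 29.8 ± 24.9 in DWYG-M, 29.9 ± 7.66 in DWYG-H and 0.050 ± 0.028 in control (SD, n = 2 each). All 6 libraries of the exposed groups were above both control libraries, and the 3 exposed groups overlapped. In reads, the counts of Klrb1b were 865 and 1533 for model, 1640 and 413 for DWYG-M, 1149 and 853 in DWYG-H, and 1 and 2 in control.

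The comparison of model with control asked what DEN and CCl4 exposure did to these transcripts. By edgeR's quasi-likelihood test over the 11606 genes that reached 1 FPKM in at least 2 libraries, 1 of the 6 tested members rose and 0 fell at an adjusted p under 0.05, against 15.1% of all tested genes that rose and 7.12% that fell. The member that rose was Klrb1b, with a log2 fold change of 9.21 (SE 1.05, adjusted p = 0.00167, 95% interval 6.79 to 11.64), and both model libraries were above both control libraries. Klrb1b passed the level filter only through the exposed groups, where it is high. With 3 control reads in all, its fitted fold depends on the prior count. The ratio of reads, scaled to library size, was 757.9, with an exact counting interval of 259.0 to 3677.7 that leaves out the spread between libraries. The call held in all 14 alternatives tried (adjusted p from 1.24e-13 to 0.0226), the highest without control replicate 2.

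The remaining 5 tested members did not pass in model vs control. Cd2 gave a log2 fold change of 1.28 (adjusted p = 0.228, 95% interval −0.33 to 2.88), Gzma 0.92 (0.371), Nkg7 0.67 (0.566), Gzmb 0.51 (0.582) and Cd3g −0.18 (0.906), with edgeR's adjusted p in parentheses. On TPM values the log2 fold change of Cd3g was 0.24. The direction of Cd3g and that of Gzmb also turned when 1 model library was left out (0.19 for Cd3g without model replicate 2 and −0.43 for Gzmb without model replicate 1). Cd3d, Cd3e and Cd8a reached 1 FPKM only in DWYG-H replicate 2 and were fitted without the filter on 17127 genes. There they gave −0.19 (adjusted p = 0.94), 0.84 (adjusted p = 0.49) and 1.25 (adjusted p = 0.306). In that fit Klrb1b alone of the 9 members was called, higher, against 12.9% of all genes that rose and 5.83% that fell. The 95% intervals of Cd3d, Cd3e and Cd8a reach beyond a 2-fold rise, so a difference of that size could not be seen or dismissed at this depth and number of libraries.

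By FPKM alone, 6 of the 9 members (Cd3e, Cd8a, Cd2, Nkg7, Gzma and Klrb1b) had both model libraries above both control libraries, and 0 had both below. The same held for 44.7% of all 17164 genes, with 9.47% below, so the share of members separated upward was not far from that of all genes. FPKM is not rescaled between libraries here. On log2(FPKM + 1) the median tested gene lay 0.21 higher in model than in control and on log2(TPM + 1) 0.50 higher, against −0.01 with TMM scaling. Of the called genes, 68.0% were higher with TMM scaling, 91.7% on FPKM values, 97.5% on TPM values and 80.5% with only the 2 groups fitted.

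**Figure D2:**
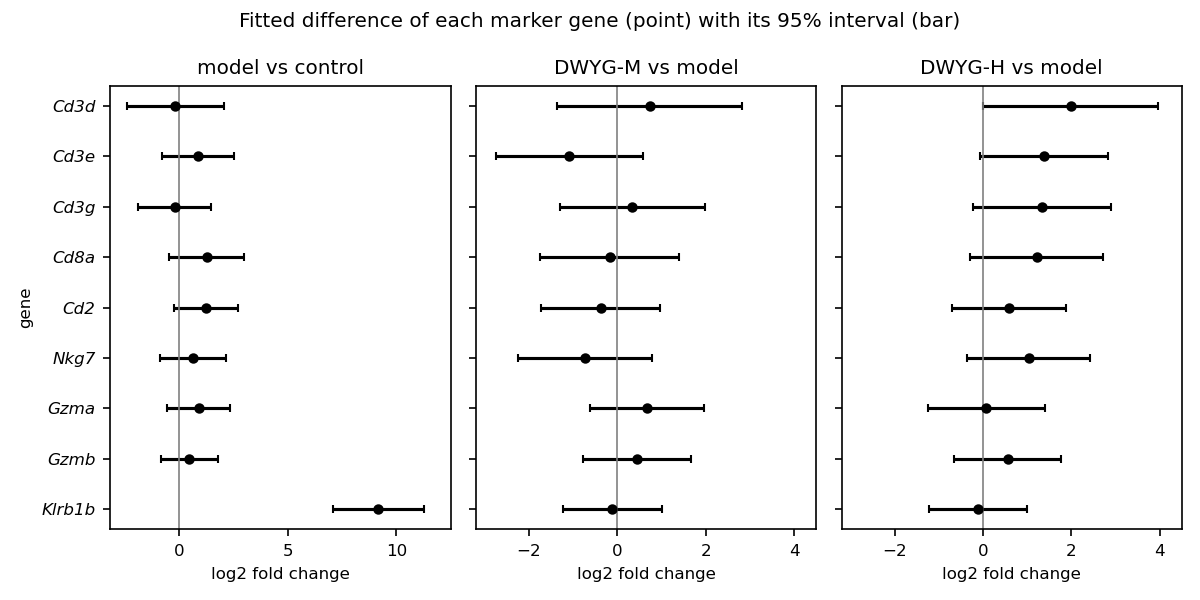
Fitted log2 fold change (x axis, points) of each marker gene (y axis) with its 95% interval (bars) in model vs control, DWYG-M vs model and DWYG-H vs model, from the edgeR fit without a level filter. Klrb1b in model vs control, at 9.17, is the one point far from 0, and its fitted value depends on the prior count. The x axis of model vs control is wider than the other two.

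DWYG-M vs model and DWYG-H vs model asked what treatment did in exposed livers. Of the 6 tested members, 0 were called in DWYG-M vs model, against 0.00862% of all tested genes (1 of 11606, with 1468 at an unadjusted p under 0.05), and DESeq2 called 0 members and 206 genes. In DWYG-H vs model 0 members were called against 0.00% of all genes (0 called, 985 at an unadjusted p under 0.05), and DESeq2 called 0 members and 120 genes. Without the level filter 0 of 9 members were called in either, against 0.00584% of genes higher and 0.00% lower in DWYG-M vs model, and 0.00584% higher and 0.0175% lower in DWYG-H vs model. Both comparisons share the model libraries.

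Klrb1b gave −0.15 in DWYG-M vs model (SE 0.56, 95% interval −1.45 to 1.14, adjusted p = 0.944) and −0.15 in DWYG-H vs model (SE 0.56, interval −1.44 to 1.15, adjusted p = 0.981). Its sign turned without DWYG-M replicate 2 (0.52) or model replicate 2 (0.39) in the first, and without model replicate 2 (0.40) in the second. The intervals span changes of more than 2-fold either way, so they do not show that Klrb1b is alike in these groups. DWYG-M itself held the highest and the lowest exposed library for this gene, 47.4 and 12.2 FPKM.

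For the T cell and granule members, DWYG-M vs model gave log2 fold changes of 0.29 for Cd3g, −0.42 for Cd2, −0.78 for Nkg7, 0.62 for Gzma and 0.39 for Gzmb, with edgeR's adjusted p between 0.713 and 0.919. Those of Cd3g, Gzma and Gzmb turned sign when 1 library was left out (−0.07 and −0.16 for Cd3g and Gzmb without model replicate 2, and −0.29 for Gzma without DWYG-M replicate 1). Fitted without the level filter, Cd3d, Cd3e and Cd8a gave 0.73, −1.08 and −0.18 (adjusted p = 0.813, 0.648 and 0.973). By FPKM, both DWYG-M libraries were below both model libraries for 3 members (Cd3e, Cd2 and Nkg7) and above for 0. Of all genes, 25.5% were separated downward and 10.7% upward, so the 3 of 9 members stand near that background.

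In DWYG-H vs model the fitted values of the T cell genes rested on 1 library. Cd3g gave 1.31, Nkg7 1.01 and Cd2 0.57 (adjusted p = 0.695, 0.738 and 0.86 by edgeR). Without DWYG-H replicate 2 they were −0.64, −0.36 and −0.54. Cd3d, Cd3e and Cd8a, fitted without the level filter, gave 1.99, 1.38 and 1.21 (adjusted p = 0.601, 0.618 and 0.687), and −0.55, −0.12 and −0.66 without that library. All 6 thus changed sign, and 0 of the 9 members had both DWYG-H libraries on one side of both model libraries, against 9.27% of all genes above and 22.6% below. The granzymes gave 0.04 for Gzma and 0.52 for Gzmb (adjusted p = 0.996 and 0.861), and both turned sign without model replicate 2 (−0.18 and −0.04), as Gzma did without DWYG-H replicate 1 (−0.12).

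Between the doses, DWYG-H vs DWYG-M, 0 of the 6 tested members were called by edgeR against 0.00% of all genes (193 at an unadjusted p under 0.05), and DESeq2 called 0 members and 5 genes. Nkg7 gave 1.80 (adjusted p = 1, 95% interval 0.17 to 3.43, unadjusted p = 0.0347), and 0.42 without DWYG-H replicate 2. Fitted without the level filter, Cd3e gave 2.46 (95% interval 0.88 to 4.04, unadjusted p = 0.00597, adjusted p = 1), Cd8a 1.39 and Cd3d 1.25 (adjusted p = 1 each), and without that library they were 0.96, −0.48 and −1.29. Klrb1b gave 0.01 (95% interval −1.29 to 1.31), and ran from −0.66 without DWYG-M replicate 2 to 1.30 without DWYG-M replicate 1. Both DWYG-H libraries were above both DWYG-M libraries by FPKM for Cd3e and Nkg7, 2 of 9 members against 13.2% of all genes.

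Against control, Klrb1b was the 1 member called in each treated group. In DWYG-M vs control 1 of 6 rose and 0 fell, against 4.35% and 0.603% of all genes, and in DWYG-H vs control 1 of 6 rose and 0 fell, against 6.59% and 1.09%. The Klrb1b log2 fold changes were 9.06 (SE 1.05, adjusted p = 0.00491) and 9.07 (SE 1.05, adjusted p = 0.00374). The ratios of reads, scaled to library size, were 664.1 (exact counting interval 226.9 to 3223.1) and 659.4 (225.3 to 3200.0). Both calls were lost without control replicate 1 (adjusted p = 0.0702 and 0.0509) or control replicate 2 (0.0721 and 0.056), where the log2 fold change was still between 8.58 and 9.67. These comparisons share the control libraries with model vs control. Without the level filter Klrb1b was again the 1 of 9 members called in each, against 4.06% of genes higher and 0.502% lower in DWYG-M vs control, and 5.79% higher and 1.01% lower in DWYG-H vs control. By FPKM, 6 of 9 members had both DWYG-M libraries above both control libraries (Cd3d, Cd8a, Cd2, Gzma, Gzmb and Klrb1b) and 0 below, against 42.5% and 7.01% of all genes. For DWYG-H it was also 6 of 9 (with Cd3e in place of Cd3d) and 0 below, against 41.7% and 8.48%. The 5 other tested members did not pass in either, with Cd2 in DWYG-H vs control at 1.84 (adjusted p = 0.147). On TPM values that adjusted p was 0.048 by limma, and without DWYG-H replicate 2 the log2 fold change was 0.74 (adjusted p = 0.632). Fitted without the level filter, Cd3d, Cd3e and Cd8a gave 0.55, −0.24 and 1.08 in DWYG-M vs control (adjusted p = 0.852, 0.957 and 0.572 by edgeR). In DWYG-H vs control they gave 1.80, 2.22 and 2.47 (adjusted p = 0.302, 0.0987 and 0.0842), and −0.74, 0.73 and 0.60 without DWYG-H replicate 2.

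The wider T cell receptor list, which adds CD3 partners and signalling proteins, held 25 genes besides the members, and Trac, Trbc1, Trbc2 and Trdc among them were not analysed here. Only 3 passed the level filter. Of these 1 rose and 0 fell in model vs control, against 15.1% and 7.12% of all tested genes. The median log2 fold change was 0.47, against −0.01 over all tested genes. Fyb, an adaptor of activated T cells and of myeloid cells, rose by 0.85 on the log2 scale, which is used for all differences that follow (adjusted p = 0.0357), but did not pass without control replicate 1 (1.09, adjusted p = 0.0584), control replicate 2 (0.61, 0.203), model replicate 1 (0.53, 0.113) or DWYG-H replicate 2 (0.85, 0.06). The Fyb call was also lost with only the 2 groups fitted. Lcp2, another adaptor, gave 0.47 (adjusted p = 0.175). Zap70, the kinase that binds CD3 chains, gave −0.11 (adjusted p = 0.876), with a log2 fold change of 0.29 on TPM values, and lay between 4.64 and 11.67 FPKM in all libraries, well above Cd3e at 0.24 to 3.15. None of the 3 was called in DWYG-M vs model or DWYG-H vs model by edgeR.

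Lck, the kinase that starts receptor signalling, was below the filter. It was at 0.98 and 0.83 FPKM in model, 0.94 and 0.87 in DWYG-M, 0.68 and 4.17 in DWYG-H, and 0.77 and 0.48 in control. Cd8b1, the partner chain of Cd8a, gave 0.71 and 0.40 FPKM in model, 0.57 and 0.43 in DWYG-M, 0.50 and 2.65 in DWYG-H, and 0.29 and 0.15 in control. DWYG-H replicate 2 was the highest library for both, as for the CD3 chains. These 2 genes were chosen after their values were seen.

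Summed over Cd3d, Cd3e, Cd3g, Cd8a and Cd2, the level was 5.42 and 3.98 FPKM in model, 4.21 and 4.08 in DWYG-M, 3.08 and 17.44 in DWYG-H, and 3.41 and 1.98 in control. The sum over 8 pan-leukocyte genes such as Ptprc and Coro1a was 158.62 and 131.09 FPKM in model, 93.36 and 103.98 in DWYG-M, 105.0 and 178.57 in DWYG-H, and 74.21 and 47.73 in control. As a share of that leukocyte sum, the T cell genes came to 3.42% and 3.04% for model, 4.51% and 3.92% for DWYG-M, 2.93% and 9.77% for DWYG-H, and 4.60% and 4.15% for control. Both model libraries were below both control libraries in this share, and DWYG-H replicate 2 was above all others. The part that leukocyte content as a whole plays in the members' values was not tested.

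**Figure D3:**
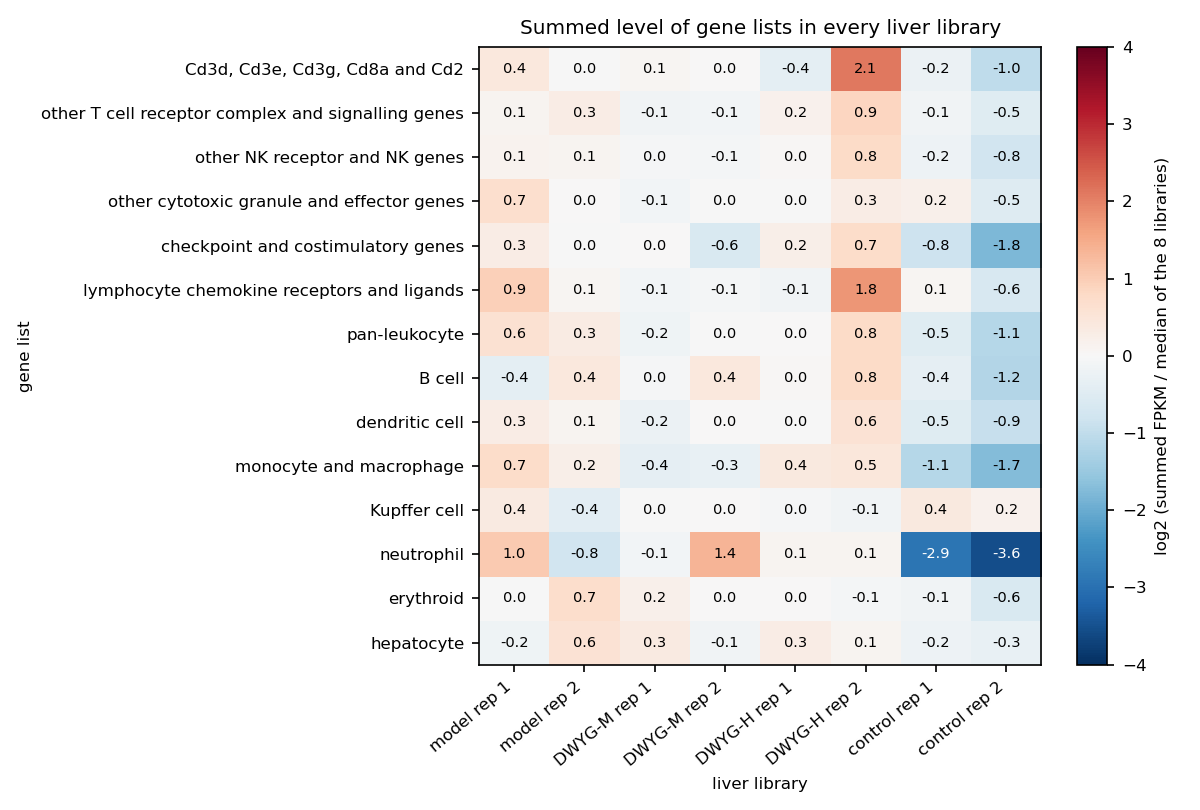
Summed FPKM of gene lists (y axis) in each of the 8 liver libraries (x axis), coloured by the log2 ratio to the median of the 8 libraries, with the ratio printed in each cell. DWYG-H replicate 2 is the highest library for the T cell genes (2.1) and the chemokine list (1.8), and both control libraries are low in neutrophil (−2.9 and −3.6) and monocyte and macrophage markers (−1.1 and −1.7).

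Markers of other cell types are given beside the members for model vs control, where 15.1% of all tested genes rose and 7.12% fell. Of the 8 pan-leukocyte genes 4 rose and 0 fell (median log2 fold change 0.99), and of 10 monocyte and macrophage markers 7 rose and 0 fell (median 1.96). Neutrophil markers had 4 that rose of 7 tested, Kupffer cell markers 0 that rose and 3 that fell of 8, and B cell markers 0 of 4. Plasma cell, dendritic cell and platelet lists had 2 of 3, 2 of 6 and 1 of 2 that rose, the erythroid list 1 of 5 that fell, the hepatocyte list 0 of 7 called, and of the mast cell and basophil list 0 genes were tested. In DWYG-M vs model and DWYG-H vs model, 0 genes of any of these lists were called by edgeR.

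Among 28 other NK genes, 7 were tested. Of these 2 rose and 1 fell in model vs control (median 0.65), against 15.1% and 7.12% of all tested genes. Itga2, the integrin chain CD49b that marks NK cells and is also made by epithelia and platelets, was at 0.85 and 1.60 FPKM in model and 0.03 and 0.04 in control. It rose by 4.76 (SE 0.70, adjusted p = 0.00382), a call that held in all 14 alternatives. Like Klrb1b, Itga2 passed the level filter only through the exposed groups, where it is high. It had 4 and 5 reads in control. Itga1 (CD49a), a collagen-binding integrin of liver-resident NK cells and of stromal cells, rose by 0.66 (adjusted p = 0.0388), which no longer passed on leaving out either control library, model replicate 2 or DWYG-H replicate 2 (0.52 to 0.71, adjusted p up to 0.171). S1pr5, a sphingosine phosphate receptor of NK cells, fell by 1.33 (adjusted p = 0.0494), which failed to pass without any 1 of the 4 libraries compared or without DWYG-H replicate 2 (−1.80 to −0.95, adjusted p up to 0.198). Both calls were also lost with only the 2 groups fitted, that of Itga1 with at least 10 reads in 2 libraries, and that of S1pr5 with median-of-ratios scaling. Klrk1, the activating receptor NKG2D, gave −0.54 (adjusted p = 0.336), with a log2 fold change of 0.24 on TPM values.

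None of the 28 NK genes came near the Klrb1b level of the exposed groups per length. Ncr1, the NK receptor NKp46, was at 0.19 and 0.09 FPKM in model, 0.48 and 0.20 in DWYG-M, 0.26 and 0.38 in DWYG-H, and 0.15 and 0.05 in control. Eomes, a transcription factor of NK and CD8 T cells, was at most 0.13 FPKM and had 0 reads in both control libraries. Other genes of the list were higher, with Klrk1 at 0.69 to 2.11 FPKM, Klrd1 at 0.11 to 2.94 and Il2rb at 0.56 to 3.15 over the 8 libraries. The highest value of any was 5.28 FPKM, for Itga1, against 12.2 to 47.4 FPKM for Klrb1b in the exposed groups. Ncr1, Eomes, Klrd1 and Il2rb were chosen after their values were seen.

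Klrb1b lies among related lectin-like receptor genes. In the exposed groups it had more reads than any of the neighbouring lectin-like genes named in this paragraph. In RefSeq order on chromosome 6 of GRCm38.p6 the next gene on one side is Klrb1c, which encodes the NK1.1 antigen and had 17 and 16 reads in model, 9 and 10 in DWYG-M, 12 and 21 in DWYG-H, and 14 and 7 in control. Klrb1a, an activating receptor of the same family, had 12 and 18 reads in model, 9 and 4 in DWYG-M, 11 and 16 in DWYG-H, and 0 and 0 in control. Klrb1f had 0 to 5 reads in every library, and BC035044 and Clec2i, the next genes on the other side, 4 to 33. Clec2h had 210 and 40 reads in control and 24 to 133 in the exposed libraries. A2ml1, which lies 5 places from Klrb1b and is not of this receptor family, had 100 and 134 in control and 441 to 1193 in the exposed libraries. Klrb1a thus had more reads in each exposed library than in control. The Klrb1 genes are related in sequence, and how the authors' counting treated reads that match more than 1 of them is not given in the sources used here. The deposited counts of Klrb1a, Klrb1b, Klrb1c and Klrb1f were whole numbers in all 8 libraries.

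**Figure D4:**
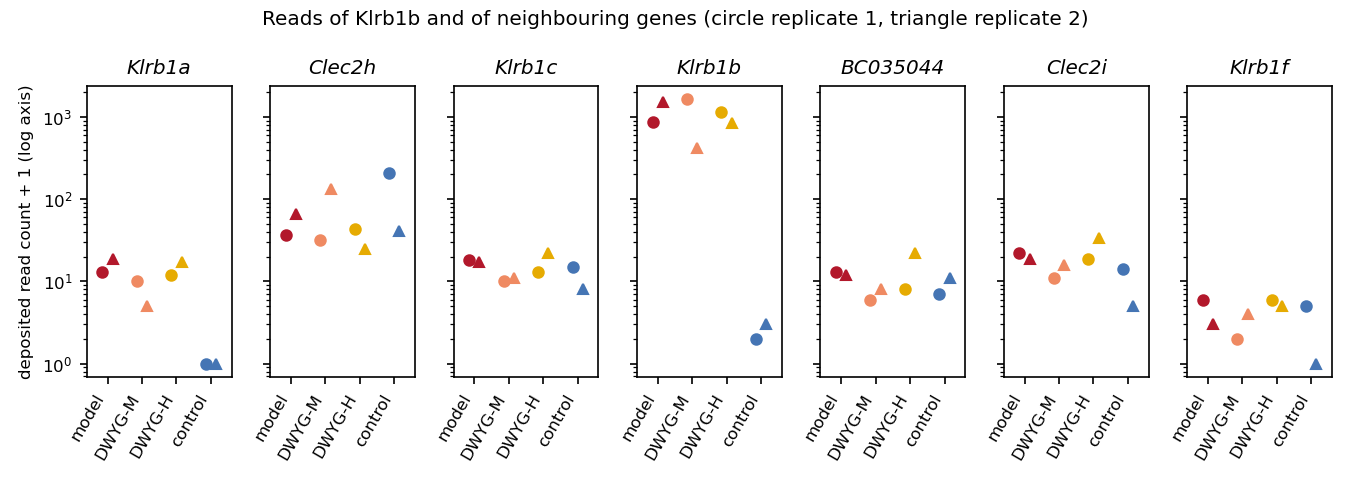
Deposited read counts plus 1 (y axis, log scale) of Klrb1b and 6 neighbouring genes in the 8 liver libraries by group (x axis), with circles for replicate 1 and triangles for replicate 2. Klrb1b has 413 to 1640 reads in the exposed groups and 1 and 2 in control, while Klrb1c has 7 to 21 in all groups and Klrb1a has 0 in both control libraries.

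The other granule and effector genes, 16 in number, had 7 tested and 0 called in model vs control (median log2 fold change 0.77). Of all tested genes 15.1% rose and 7.12% fell there. Srgn, the proteoglycan that packs granzymes and is also made by myeloid cells, gave 0.77 (adjusted p = 0.0687), and Rab27a, which docks granules at the membrane, 0.78 (adjusted p = 0.0982). Stx11 gave 0.82 and Lyst −0.35 (adjusted p = 0.214 and 0.285). The log2 fold change of Lyst was 0.18 on TPM values. Prf1, which encodes the pore protein perforin, was below the filter, at 0.07 and 0.20 FPKM in model, 0.21 and 0.10 in DWYG-M, 0.12 and 0.59 in DWYG-H, and 0.13 and 0.10 in control. Prf1 was chosen after its values were seen.

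Of 23 lymphocyte transcription factors and cytokine receptors, 7 were tested. Of these 2 rose and 0 fell in model vs control, against 15.1% and 7.12% of all tested genes. Il7r, the interleukin 7 receptor of T cells, rose by 1.95 (adjusted p = 0.0304), which no longer passed when either control library or model replicate 1 was left out (1.44 to 2.49, adjusted p up to 0.165). Ets1, a factor of lymphocytes and of endothelium, rose by 0.49 (adjusted p = 0.0477), which failed to pass without any 1 of the 4 libraries compared or without DWYG-H replicate 2 (0.37 to 0.59, adjusted p up to 0.23). Il7r reached 1 FPKM only in exposed libraries. Its call was also lost on log2(FPKM + 1) and with only the 2 groups fitted. That of Ets1 was also lost with DESeq2, without the level filter, with at least 10 reads in 2 libraries and with only the 2 groups fitted. Zbtb16, a factor of NKT cells, gave 2.71 (adjusted p = 0.0642).

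Checkpoint and costimulatory genes had 4 of 14 tested. In model vs control 1 rose, against 15.1% of all tested genes. That was Tnfrsf18, the costimulatory receptor GITR, at 2.19 and 5.22 FPKM in model, 3.51 and 1.10 in DWYG-M, 5.44 and 3.35 in DWYG-H, and 0.22 and 0.00 in control. It passed the level filter only through the exposed groups, where it is high. With 2 control reads, its read ratio of model to control, scaled to library size, was 46.9 (exact counting interval 12.7 to 392.9, adjusted p = 0.0155 by edgeR), which no longer passed when either control library or model replicate 2 was left out (adjusted p up to 0.0955). Btla, Cd86 and Cd274 gave 0.68, 0.28 and −0.31 (adjusted p between 0.496 and 0.726). The log2 fold change of Cd274 was 0.16 on TPM values. Pdcd1, which encodes PD-1, was below the filter, at 0.31 and 0.19 FPKM in model, 0.41 and 0.14 in DWYG-M, 0.32 and 1.71 in DWYG-H, and 0.00 and 0.00 in control, and was chosen after its values were seen.

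Chemokines and homing receptors direct lymphocytes into and out of tissue. Of 13 tested genes, 2 rose and 1 fell in model vs control (median 0.80), against 15.1% and 7.12% of all tested genes. Ccl21a, a ligand of CCR7 on T cells, was at 10.7 and 7.15 FPKM in model, 3.11 and 3.78 in DWYG-M, 2.69 and 2.14 in DWYG-H, and 1.83 and 0.92 in control. It rose by 2.39 in model vs control (SE 0.37, adjusted p = 0.0044), in all 14 alternatives, and both libraries of each DWYG group lay between the model and control libraries. In DWYG-M vs model Ccl21a gave −1.30 (SE 0.33, adjusted p = 0.25) and in DWYG-H vs model −1.80 (SE 0.34, adjusted p = 0.25), neither of which passed over all genes.

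Cxcl16, the ligand of CXCR6 on T and NKT cells, rose by 1.06 in model vs control (adjusted p = 0.00488), though not without control replicate 2 (0.98, adjusted p = 0.0502). S1pr1, the receptor that lets lymphocytes leave tissue and that endothelium also carries, fell by 1.02 (adjusted p = 0.0185), but gave −0.74 when control replicate 1 was left out and −0.89 for model replicate 2 (adjusted p = 0.1 and 0.0819). Cxcl9, an interferon gamma target that binds CXCR3 on T cells, was at 4.70 and 89.9 FPKM in DWYG-H against 7.12 and 4.31 in model, with a log2 fold change of 3.11 (adjusted p = 0.472). Without DWYG-H replicate 2 it was −0.19 (adjusted p = 0.97), and without DWYG-H replicate 1 it was 4.05 (adjusted p = 0.0273).

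DWYG-H replicate 2 was the highest library for other lymphocyte genes too, chosen after their values were seen. Xcl1, a chemokine made by CD8 T and NK cells, was at 11.17 FPKM there against 0.29 to 1.42 in the other 7 libraries. Ifng, the interferon gamma gene, was at 0.85 against 0.00 to 0.19. Ccl5, a chemokine of T cells, was at 39.84 against 4.15 to 17.75. Cxcl9 was at 89.91 against 3.73 to 7.12. In reads, Ifng had 14 in this library against 0 to 3 in the others, and Xcl1 had 41 against 1 to 5. Cxcl10, of the same chemokine list, was instead highest in model replicate 1, at 49.94 FPKM against 36.08 in DWYG-H replicate 2. A link between these transcripts was not tested.

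The list of partners of the members holds ligands, serpin protease inhibitors and activating cytokines. Of 15 tested, 6 rose and 2 fell in model vs control (median 0.74), against 15.1% and 7.12% of all tested genes. Clec2d, whose product Clr-b is the ligand of the Klrb1b receptor, was at 40.8 and 29.2 FPKM in model, 37.4 and 78.6 in DWYG-M, 48.0 and 76.6 in DWYG-H, and 96.1 and 54.3 in control. It fell by 1.37 in model vs control (SE 0.39, adjusted p = 0.0415), which failed to pass without any 1 of the 4 libraries compared or without DWYG-H replicate 2 (−1.71 to −0.98, adjusted p up to 0.198), and on FPKM or TPM values (−0.73 with adjusted p = 0.177 on TPM). In DWYG-M vs model it gave 0.79 (adjusted p = 0.446) and in DWYG-H vs model 0.90 (adjusted p = 0.589). The receptor transcript was thus higher and the ligand transcript lower in model than in control.

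Cd48, the ligand of Cd2 in the mouse, was at 8.82 and 5.21 FPKM in model, 3.68 and 4.78 in DWYG-M, 7.56 and 6.17 in DWYG-H, and 3.27 and 2.57 in control. It rose by 1.00 in model vs control (adjusted p = 0.0437), which no longer passed on leaving out either control library, model replicate 1 or DWYG-H replicate 2 (0.70 to 1.14, adjusted p up to 0.204), and gave −0.66 in DWYG-M vs model and 0.04 in DWYG-H vs model (adjusted p = 0.392 and 0.99). The Cd48 call was also lost with at least 10 reads in 2 libraries and with only the 2 groups fitted. Of the serpin protease inhibitors, which many cells make, Serpinb6a and Serpinb6b were higher in model than in control. Serpinb6a was at 57.9 and 63.9 FPKM in model against 17.0 and 12.3 in control (1.81, SE 0.23, adjusted p = 0.00234). Serpinb6b was at 7.44 and 12.02 FPKM in model against 0.93 and 1.30 in control (2.94, SE 0.43, adjusted p = 0.00367). Both calls held in all 14 alternatives.

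Serpinb9, the inhibitor of granzyme B in cells that make it, rose by 0.89 in model vs control (adjusted p = 0.0173), though not without control replicate 2 (0.69, adjusted p = 0.122). Il15ra, which presents interleukin 15 to NK and T cells, fell by 1.00 (adjusted p = 0.0198), which no longer passed when either control library or model replicate 2 was left out (−1.04 to −0.79, adjusted p up to 0.0836). The Serpinb9 call was also lost with only the 2 groups fitted. The falls of S1pr5, S1pr1 and Il15ra were also not called on FPKM or TPM values (on TPM −0.54, −0.40 and −0.35, adjusted p = 0.131, 0.244 and 0.231 by limma). In DWYG-M vs model Serpinb6a and Serpinb6b gave −0.69 and −1.31 (adjusted p = 0.294 and 0.282). Pvr, a ligand of activating and inhibitory NK receptors, gave −1.04 in DWYG-H vs model (adjusted p = 0.395).

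Across the 8 libraries, the genes most like the mean of the 6 tested members were Gas7 (Pearson r = 0.96), Rab27a (0.957), Adam11 (0.956), Itga4 (0.949), Birc3 (0.946) and Slamf7 (0.946) on log2 CPM, counts scaled to library size. These are descriptions over 8 points that share the contrast of exposed with control livers, and over the 6 exposed libraries the r values were 0.82 to 0.964. Slamf7 marks NK cells, activated T cells and plasma cells, and Itga4 is a leukocyte integrin. Likeness to Klrb1b alone, a choice made after its values were seen, gave other genes. Alox5 (0.998), Igdcc4 (0.998), Tmem237 (0.996), Tspan8 (0.995), Kif5c (0.995) and Akr1c18 (0.994) headed that list.

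Tspan8, a tetraspanin of epithelial and tumour cells, was at 105.6 and 150.4 FPKM in model, 118.1 and 71.6 in DWYG-M, 119.8 and 76.5 in DWYG-H, and 1.09 and 0.72 in control. Akr1c18, a steroid-reducing enzyme, was at 159.2 and 302.4 FPKM in model, 196.1 and 79.2 in DWYG-M, 251.4 and 120.2 in DWYG-H, and 0.19 and 0.07 in control. Both genes and Klrb1b were at their lowest exposed level in DWYG-M replicate 2. Over the 6 exposed libraries alone, r with Klrb1b was 0.868 for Tspan8, 0.903 for Akr1c18 and 0.96 for Alox5. Among the members, r with Klrb1b over 8 libraries, here on log2(FPKM + 0.1), was highest for Gzma (0.739) and lowest for Cd3g (0.163). Without DWYG-H replicate 2 it was highest for Cd2 (0.79, with Gzma at 0.746) and lowest for Cd3g (−0.003).

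Among the members themselves, also on log2(FPKM + 0.1), Cd3d with Cd3g (r = 0.96), Cd8a with Cd2 (0.956) and Cd3e with Nkg7 (0.952) were the closest pairs over the 8 libraries. Without DWYG-H replicate 2 these were 0.831, 0.927 and 0.868, while Cd3d with Cd3e moved to −0.424 from 0.665. On log2 CPM, the mean of Cd3g, Cd2 and Nkg7 was most like Gimap3 (0.991), a gene of lymphocyte survival, and Ctsw (0.975), a protease of cytotoxic lymphocytes. This comparison was chosen after the values were seen. Without DWYG-H replicate 2 these r values were 0.965 and 0.893.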

How the data were processed

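RNA of 8 mouse liver libraries was measured, 2 each of model, DWYG-M, DWYG-H and control. Per the labels' protocols, 2 µg of RNA went into each library. Per the file headers, the deposited table gives the authors' expected counts, FPKM and TPM per gene. The submitters' processing notes name GRCm39; no aligner or counter is given in the sources used here. Another 24 columns (normalized values and averages) were not used.

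The read counts, of which 89.8% to 91.5% were whole within 0.005, were rounded. The 11606 genes that reached 1 FPKM in 2 or more libraries were fitted with edgeR 4.0.16 (TMM scaling, 1 model of 4 groups, quasi-likelihood test, Benjamini-Hochberg adjustment over all tested genes, calls under 0.05) in R 4.3.3. Alternatives used DESeq2 1.42.0, limma 3.58.1 on the log2 of the deposited FPKM or TPM plus a pseudocount of 1 or 0.1, other filters, fewer groups and each library left out.

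All members were named in every comparison. Of each pathway list up to 4 genes with the smallest p in model vs control, and up to 2 in each DWYG vs model comparison, were named, with Clec2d, Cd48 and the 6 genes most like the members. Some genes that this rule names are not reported here. Genes outside this rule are marked in the text. Members and lists were chosen with earlier results of these data known. RefSeq names and promoter windows are on GRCm38.p6, matched by Entrez ID.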

Additional observations from a re-analysis of the deposited data

How the results depend on the processing

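Over the alternatives, 39 of 486 values for the 6 members that passed the level filter turned sign, 4 lost a call and 1 gained one. Cd3d, Cd3e and Cd8a, which did not pass that filter, are not among these values. With limma on log2(FPKM + 1), model vs control gave 0.042 for Cd3g, 0.005 for Zap70 and 0.042 for Klrk1, DWYG-H vs model gave −0.008 for Gzma, and DWYG-M vs control gave 0.12 for Nkg7. With a pseudocount of 0.1, these were 0.048 for Cd3g, 0.10 for Klrk1, −0.002 for Gzma and 0.26 for Nkg7. On log2(TPM + 1), model vs control gave 0.24 for Cd3g, 0.29 for Zap70, 0.18 for Lyst, 0.24 for Klrk1 and 0.16 for Cd274. On that scale DWYG-H vs model gave −0.043 for Gzma and −0.04 for Cd48, DWYG-M vs control gave 0.29 for Nkg7, and 2 members were called in DWYG-H vs control. Klrb1b in DWYG-H vs DWYG-M was −0.007 with no filter and 0 with at least 10 reads in 2 libraries. The cause of these turns was not tested.

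Leaving out 1 library at a time gave these ranges of log2 fold change. In model vs control they were −0.67 to 0.19 for Cd3g, −0.43 to 1.06 for Gzmb, −1 to 0.46 for Zap70, −0.28 to 1.82 for Btla, −0.47 to 0.78 for Cd86 and −0.72 to 0.021 for Cd274. In DWYG-M vs model they were −0.072 to 0.80 for Cd3g, −0.29 to 1.17 for Gzma, −0.16 to 1.35 for Gzmb, −1.44 to 0.52 for Klrb1b, −1.72 to 0.23 for Tnfrsf18 and −0.66 to 0.59 for Cd86. In DWYG-H vs model they were −0.64 to 2.11 for Cd3g, −0.54 to 1.18 for Cd2, −0.36 to 1.71 for Nkg7, −0.18 to 0.30 for Gzma, −0.035 to 1.47 for Gzmb and −0.55 to 0.40 for Klrb1b. There they were also −0.43 to 0.068 for Lcp2, −0.43 to 0.17 for Fyb, −2.37 to 0.081 for Zbtb16, −0.21 to 1.495 for Cd274, −0.14 to 1.39 for Btla, −0.19 to 4.05 for Cxcl9 and −0.21 to 0.35 for Cd48. In DWYG-H vs DWYG-M they were −0.94 to 1.80 for Cd3g, −0.12 to 1.60 for Cd2, −1.14 to 0.33 for Gzma, −0.15 to 0.47 for Gzmb and −0.66 to 1.30 for Klrb1b. In DWYG-M vs control they were −0.15 to 0.42 for Cd3g and −0.68 to 0.81 for Nkg7, with 0 to 1 members called, and in DWYG-H vs control −0.82 to 1.91 for Cd3g, with 0 to 1 members called. A group left with 1 library was assumed to vary like the others.

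The count of all genes called in model vs control, 2582, ran from 812 without control replicate 2 to 5448 on TPM values, with 1669 when only these groups were fitted, 1099 without control replicate 1 and 1468 without model replicate 2. It was 575 (39 to 2820) in DWYG-M vs control and 892 (77 to 3369, and 423 without DWYG-H replicate 2) in DWYG-H vs control. It was 1 (0 to 206) in DWYG-M vs model, 0 (0 to 120) in DWYG-H vs model and 0 (0 to 5) in DWYG-H vs DWYG-M, each highest with DESeq2. The labels do not say what the replicate number marks. Same-numbered libraries did not deviate together throughout (r from −0.143 to 0.255), which cannot settle whether they share a day, litter or batch. With the replicate block, 2682 genes were called in model vs control, 507 in DWYG-M vs control, 856 in DWYG-H vs control and 0 in the other comparisons, and the counts of members called were as without it, while the Clec2d call in model vs control was lost (adjusted p = 0.0559) and Zbtb16 was called there (adjusted p = 0.00948). With 2 libraries a group and few reads for most members, only large differences could be called.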
